A study of Mus musculus with 4 samples.

Results

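Excess glucocorticoid and trabecular bone were compared through 2 single-cell RNA-Seq libraries, 1 from prednisolone-treated mice (GC) and 1 from placebo-treated mice (control), each read as a single pooled profile. The members were cell barcodes with at least 500 UMIs (unique molecular identifiers, where 1 UMI stands for 1 RNA molecule caught on its barcode), at least 200 detected genes and at most 10% of UMIs from mitochondrially encoded genes. This rule kept 3977 barcodes in control and 4788 in GC, 8765 of the 23216 that it kept over the 4 libraries of the series. By the labels, all donors were male C57BL/6J mice of 20 weeks that carried a subcutaneous slow-release pellet for 2 weeks, and the groups differed in what it released, prednisolone at 6.25 mg/kg/d or placebo. Marrow was flushed from the bone, the crushed fragments were digested with Collagenase II, Dispase II and DNase I, and both fractions were pooled. The remaining libraries came from fracture callus of GC and control mice and are used only for values set side by side. Their labels give the same strain, sex, age, pellet, dose and week, whereas the study's text describes prednisolone given by daily injection in its fracture model, so the route may differ and cannot be told apart from the tissue.

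Glucocorticoids bind the glucocorticoid receptor, a ligand-activated transcription factor that most cells carry, and switch on genes such as Fkbp5, Tsc22d3 and Zbtb16 while damping inflammatory and interferon programs. In marrow they are known to deplete developing lymphocytes, above all B-cell precursors, and to act on the maturation and release of neutrophils, the most abundant marrow leukocyte. Trabecular bone houses this marrow, so a pooled profile reads its blood-forming cells before its bone-forming ones.

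For each gene, UMIs were summed over the kept barcodes and scaled to a total of 1000000 in each library (CPM), and the difference is given as log2((GC CPM + 1)/(control CPM + 1)). A gene entered with at least 5 CPM in 1 of the 2 libraries, and only genes at least 2-fold apart on that scale are said to have risen or fallen. Genes near 5 CPM could enter through the higher library alone, which favours genes past 2-fold in list counts and medians. With 1 library a side there are no replicates, no test was possible, and the 95% intervals given cover counting error only. The kept barcodes held 35653535 UMIs in control and 39645225 in GC, 86.45% and 86.42% of each library, at a median of 6337 and 5725.5 UMIs and 1422 and 1372.5 genes per barcode. At these depths the counting interval in the higher library had a half-width of at most 14.9% of the level for genes that entered. For genes of 50 CPM or more in that library it was at most 4.67%. Intervals in the lower library could be wider. The kept barcodes of the libraries had 7 sequences in common. The number of mice behind each library is not given in the sources used here, and differences between mice, cell preparations and treatments cannot be told apart.

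Genes of marrow cells were at high levels and those of bone cells at low levels. Neutrophil calprotectin (S100a8 and S100a9) made up 18.5% of all UMIs in control and 14.96% in GC, and the 4 adult hemoglobin genes 3.99% and 7.20%. None of 15 chondrocyte genes entered, 3 of 16 endothelial and pericyte genes did, and of the RANKL and bone turnover regulators 1 of 17 did. Of 20 osteoblast and matrix genes 10 entered, and the list summed to 228.9 CPM in control and 301.9 in GC. The Y-linked genes Ddx3y (70.7 CPM in control, 65.5 in GC) and Eif2s3y (63.2 and 59.6) were present in both libraries, and Xist had 2 UMIs in control and 4 in GC.

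Of 8647 genes that entered, 95 rose at least 2-fold in GC, or 1.1%, and 114 fell, or 1.32%. The profiles were otherwise close, with a median log2 difference of -0.04 and 90.8% of genes within 0.5 of 0. Among the 2364 candidates of at least 50 CPM, from which gene models and antigen receptor segments are left out, 29 rose and 16 fell. The lowest log2 ratios among them were those of Vpreb3 and Ebf1, genes of B-cell precursors, and the highest those of Ighg2b, an antibody gene, and Prnp, the prion protein gene. Without B-marked barcodes, those with at least 2 UMIs over 9 B-lineage genes, 106 rose and 35 fell. The plot of pooled levels shows these genes standing off a narrow diagonal.

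**Figure D1:**
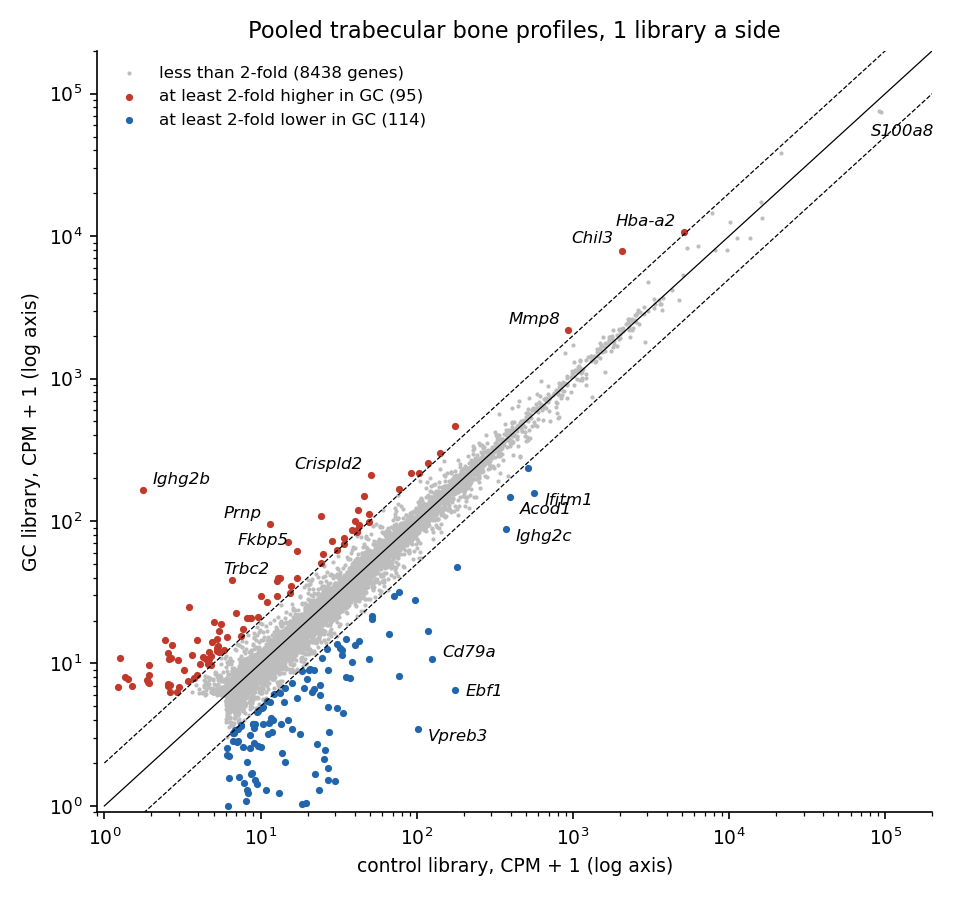
Each point is 1 of the 8647 genes that entered, placed by its CPM + 1 in the control library (x) and the GC library (y), both on log axes; the solid line marks equal levels and the dashed lines a 2-fold difference. The 95 genes that rose (red) and the 114 that fell (blue) lie at all levels up to Hba-a2, while 90.8% of genes stay within 0.5 log2 units of equality.

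B-lineage genes gave the deepest losses. A B cell is built in marrow in steps: Ebf1 and Pax5 commit the precursor, Rag1 and Rag2 cut the antigen receptor genes, and Dntt adds bases at the joints. Vpreb1 and Igll1 encode parts of the surrogate light chain of the pre-B cell, and Vpreb3 is a further gene of B-cell precursors. Of the 13 pre-B and pro-B genes that entered, of 15 matched, 11 fell and 0 rose (1.32% and 1.1% of all genes), with a median of -3.40 against -0.04 for all genes. Most of the 11 were below 5 CPM in GC and entered through control alone, and with no filter on genes the median was -3.05. The summed level of all 15 matched genes was 483.7 CPM in control and 52.4 in GC. In pooled profiles fewer cells of a type and less RNA per cell cannot be told apart.

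Ebf1, the transcription factor that specifies the lineage, was at 175 CPM in the control library (95% interval 170.6 to 179.4) and at 5.50 in the GC library (4.79 to 6.28), 31.8-fold lower. Vpreb3 was at 100.5 CPM in the control library (97.3 to 103.9) and at 2.47 in the GC library (2.01 to 3.01), 40.7-fold lower, with UMIs in 352 and 21 barcodes. These were the 2 lowest log2 ratios among the genes of at least 50 CPM, -4.76 and -4.87.

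Pax5, which locks in B identity, was at 22.8 CPM in control and 0.303 in GC, and Vpreb1 was at 25.9 and 0.530. Igll1, the lambda5 part of the surrogate light chain, had 658 UMIs in control and 2 in GC, a ratio of 365.8 with a counting interval of 100.9 to 3027.1. Rag1 had 186 UMIs in control and 0 in GC, at least 55.5-fold lower by the lower end of the counting interval. The precursor genes thus ranged from 0 to low levels in GC.

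The adaptor Blnk (26.4 to 2.32 CPM), Akap12 (21.3 to 0.681), Cecr2 (24.96 to 1.46), Dntt (10.3 to 2.82) and Sox4 (31.1 to 11.8), a factor that progenitors of several lineages share, also fell. The 2 members that entered and did not fall were Erg, at 7.43 CPM in control and 5.30 in GC, and Il7r, at 11.1 and 19.1. Il7r encodes the interleukin-7 receptor chain, which T cells carry as well as B-cell precursors.

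Surface and signalling genes of the B lineage followed. Of 14 that entered, 10 fell, most of them entering through control alone, and 0 rose, with a median of -2.59. That median was -0.47 where only genes of at least 50 CPM entered, -0.18 without B-marked barcodes and -0.23 in neutrophil-marked barcodes, those with at least 50 calprotectin UMIs per 1000, none of them past 2-fold. Cd79a and Cd79b, the signalling pair of the B-cell receptor, were at 124.9 and 75.9 CPM under placebo and at 9.69 and 7.16 in GC, 12.9-fold and 10.6-fold lower. Spib, a transcription factor of B cells and plasmacytoid dendritic cells, had 1027 UMIs in control and 20 in GC. Ms4a1, which encodes CD20 (12.7 to 1.36 CPM), and the kinase Blk (7.26 to 0.227) fell too. The 4 members that stayed within 2-fold were Cd24a, Syk, Cd37 and Btk, with log2 ratios from -0.47 to -0.16, and all 4 had UMIs in neutrophil-marked barcodes, at 784.7 and 669.8 CPM for Cd24a. Ly6d, a surface marker of committed lymphoid precursors outside these lists, went from 117 CPM to 15.9.

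**Figure D2:**
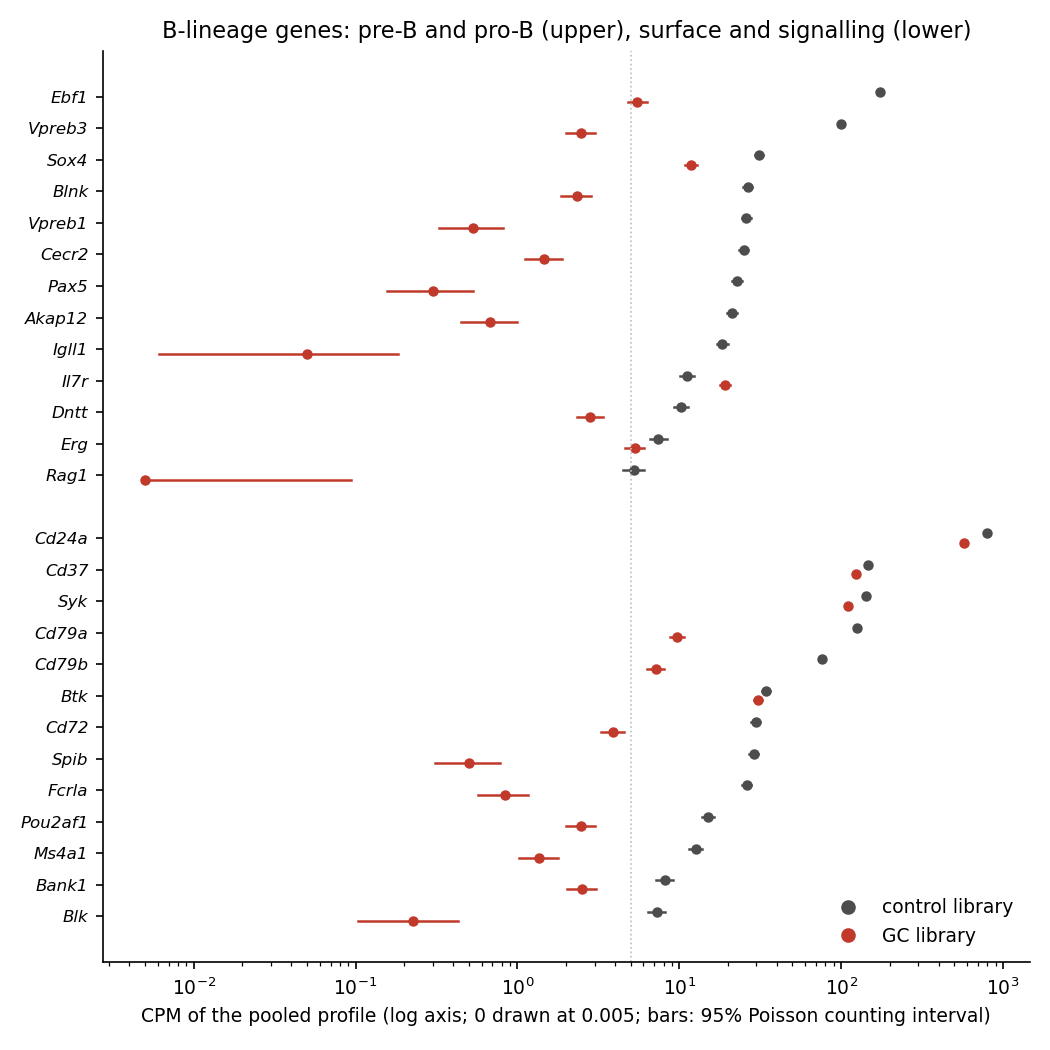
CPM of the pooled profile on a log axis for the 13 pre-B and pro-B genes (upper block) and 13 of the surface and signalling genes (lower block) that entered, in control (grey) and GC (red); bars are 95% Poisson counting intervals, 0 is drawn at 0.005 and the dotted line marks 5 CPM. Most GC points sit at least 10-fold to the left of the control points, and Il7r is the only gene whose GC point lies to the right.

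Genes of mature B cells were mixed. Of 11 that entered, 6 fell and 0 rose, with a median of -1.06. Bach2 (32.7 to 3.46 CPM), the receptor for BAFF Tnfrsf13c (17.0 to 2.22), Fcmr (8.16 to 0.530) and the heavy-chain gene Ighd (7.63 to 0.681) fell. These were below 5 CPM in GC and entered through control alone, which tilts the count toward genes that fell. Klf2 was at 407.6 CPM in control and 618.0 in GC, and Ltb at 34.9 and 55.1, and both were also present in neutrophil-marked barcodes, Klf2 at 394.2 and 636.2 CPM. The median turned to 0.60 where only genes of at least 50 CPM entered.

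The loss was seen in the number of barcodes as well as in the levels. B-marked barcodes numbered 442 in control, 11.1% of all (95% Clopper-Pearson interval 10.1% to 12.1%), and 91 in GC, 1.90% (1.53% to 2.33%). At a stricter minimum of 4 UMIs they numbered 366 and 45, and at 1 UMI 754 and 260. Their median depth was 4360 UMIs in control and 24820 in GC. With every barcode thinned to 500 UMIs, Cd79a was detected in 6.04% of control barcodes (5.32% to 6.82%) and in 0.355% of GC barcodes (0.207% to 0.568%). In neutrophil-marked barcodes, which should lack the gene, the thinned share was 0.371% in control and 0.0650% in GC, at median depths of 6219 and 5528.5. Without thinning, 10.9% and 1.13% of barcodes held a Cd79a UMI.

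Free RNA followed the same direction. In barcodes of 10 to 100 UMIs, too few for a cell, the pre-B and pro-B genes summed to 260.2 CPM in control and 36.6 in GC. In neutrophil-marked barcodes the sums were 68.9 and 9.16 CPM, and 42 control and 3 GC barcodes carried both marks. Without B-marked barcodes, which were chosen by genes of the same lists, the sums over all barcodes were 41.2 and 42.6 CPM. The list median was still -0.43 there. Il7r alone was above 0, with a log2 ratio of 1.70, while Ebf1, Vpreb3 and Blnk were at -0.82, -1.03 and -1.14. The part of doublets and free RNA in these values was not tested. Within each of 5 classes of barcode size, cut at 1000, 2000, 5000 and 10000 UMIs, the summed level was lower in GC, by 4.34-fold in the smallest class, then by 136.8-fold, 29.4-fold and 6.95-fold, and by 5.92-fold in the largest.

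Antibody genes did not move as 1 group. Plasma cells, which secrete antibody, hold very large amounts of immunoglobulin RNA, so that single barcodes can set a pooled level. Ighg2b was at 0.757 CPM in control and 162.9 in GC, the highest log2 ratio among genes of at least 50 CPM at 6.54, and 1 barcode held at least 50% of its GC UMIs. Ighg2c was at 369.2 CPM in control and 87.3 in GC, and 1 barcode held at least 50% of its UMIs in each library. Ighg1 had 621 UMIs in control and 1 in GC, a ratio of 690.5 with an interval of 123.5 to 27317.7, and 1 control barcode again held at least 50% of them.

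Igha and Igkc, the most abundant of these genes, were at 591.4 and 3015.9 CPM under placebo and at 780.8 and 4763.3 in GC, each with at least 50% of its UMIs in 3 to 5 barcodes. Ighm was level at 281.0 and 274.3 CPM, but at least 50% of its UMIs came from 146 barcodes in control and from 2 in GC. Of the 10 constant-region genes that entered, 1 rose and 5 fell, with a median of -0.98. Of 8 plasma-cell genes, Irf4 (12.5 to 2.75 CPM) and Slamf7 (8.25 to 2.77) fell, and Jchain, which links antibody polymers, was at 336.6 and 561.0 CPM. Ighg2b and Ighg2c, and Iglc2 and Iglc3, are close copies whose reads the counting could have split. Variable, diversity and joining segments together were at 63.0 CPM under placebo and at 48.8 in GC, and 1 of 645 entered.

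T-cell genes ran the other way. Of 12 T-cell genes that entered, of 15 matched, 11 rose and 0 fell, with a median of 1.38, and the 12th, the kinase Lck, was at 4.91 CPM in control and 9.94 in GC (log2 0.89). Cd3e, Trac, Cd8a, Cd8b1, Lck, Tcf7 and Bcl11b entered through GC alone, so the count is tilted toward genes that rose. With no filter on genes the median was 1.35. The sum of all 15 matched genes was 66.0 CPM in the control pool and 196.5 in the GC pool, 2.97-fold higher (95% interval 2.84 to 3.12). The T-cell receptor constant genes Trbc2 (11.9 to 38.6 CPM) and Trac (4.57 to 17.9) rose, as did Cd3e of the receptor's signalling complex (3.90 to 13.1). Cd8b1, a chain of the co-receptor of cytotoxic T cells, was at 1.963 CPM in control and 9.59 in GC, with UMIs in 20 and 90 barcodes, while Cd4 did not enter. After thinning, Cd3e was found in 0.277% of control barcodes (0.138% to 0.494%) and 0.794% of GC barcodes (0.562% to 1.09%), against 0.0371% and 0.0325% of neutrophil-marked barcodes, and without thinning in 1.16% and 3.61%.

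The T-cell sum was higher in GC in barcodes of at least 2000 UMIs, by 1.80-fold, 2.35-fold and 4.85-fold in the 3 upper size classes. In the lower classes it was 0.677-fold (0.259 to 1.68) and 0.718-fold (0.378 to 1.36), with intervals that included 1. Free RNA held 53.3 CPM of these genes in control and 177.9 in GC.

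Cytotoxic genes of NK and T cells gave a median of 0.92 over 7 that entered, of which 3 rose and 0 fell. Gzma, Klrd1 and Klrk1 were below 5 CPM in control and entered through GC alone. Ccl5, a chemokine that effector lymphocytes store, was at 91.3 CPM in control and 216.2 in GC. Gzma, a protease of cytotoxic granules, had 88 UMIs in control and 951 in GC, and at least 50% of them lay in 2 barcodes in control and in 7 in GC. Among NK-cell receptor genes, Klrd1 rose (4.85 to 11.4 CPM), and Klrk1 was at 3.73 and 6.96 CPM, within 2-fold. Ncr1, Klrb1c and Klre1 did not enter, with log2 ratios of -0.01, 0.95 and 1.35 at levels below 5 CPM.

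Dendritic-cell genes fell at the plasmacytoid end. Plasmacytoid dendritic cells are the main producers of type I interferon, and Siglech and Ccr9 are among their surface markers. Siglech was at 10.9 CPM in control and 2.32 in GC, Ccr9 at 10.2 and 2.22, and Cox6a2 at 14.1 and 3.03. Of 9 dendritic-cell genes that entered, these 3 fell and 0 rose (1.32% and 1.1% of all genes), with a median of -0.62. All 3 were below 5 CPM in GC and entered through control alone, so the count is tilted toward genes that fell. Their counts rest on 41 control barcodes and 18 or 15 GC barcodes for Siglech and Ccr9. The antigen-presentation genes of MHC class II had a median of -0.43, and 2 of 9 fell, H2-Ob (8.05 to 1.77 CPM) and H2-DMb2 (6.54 to 2.62), both expressed by B cells. Both entered through control alone. Without B-marked barcodes the median of these 9 genes was 0.11, 0 fell and H2-Eb1 rose (log2 1.25), while H2-Ab1, H2-Aa and Cd74 had log2 ratios of 0.92, 0.85 and 0.77.

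**Figure D3:**
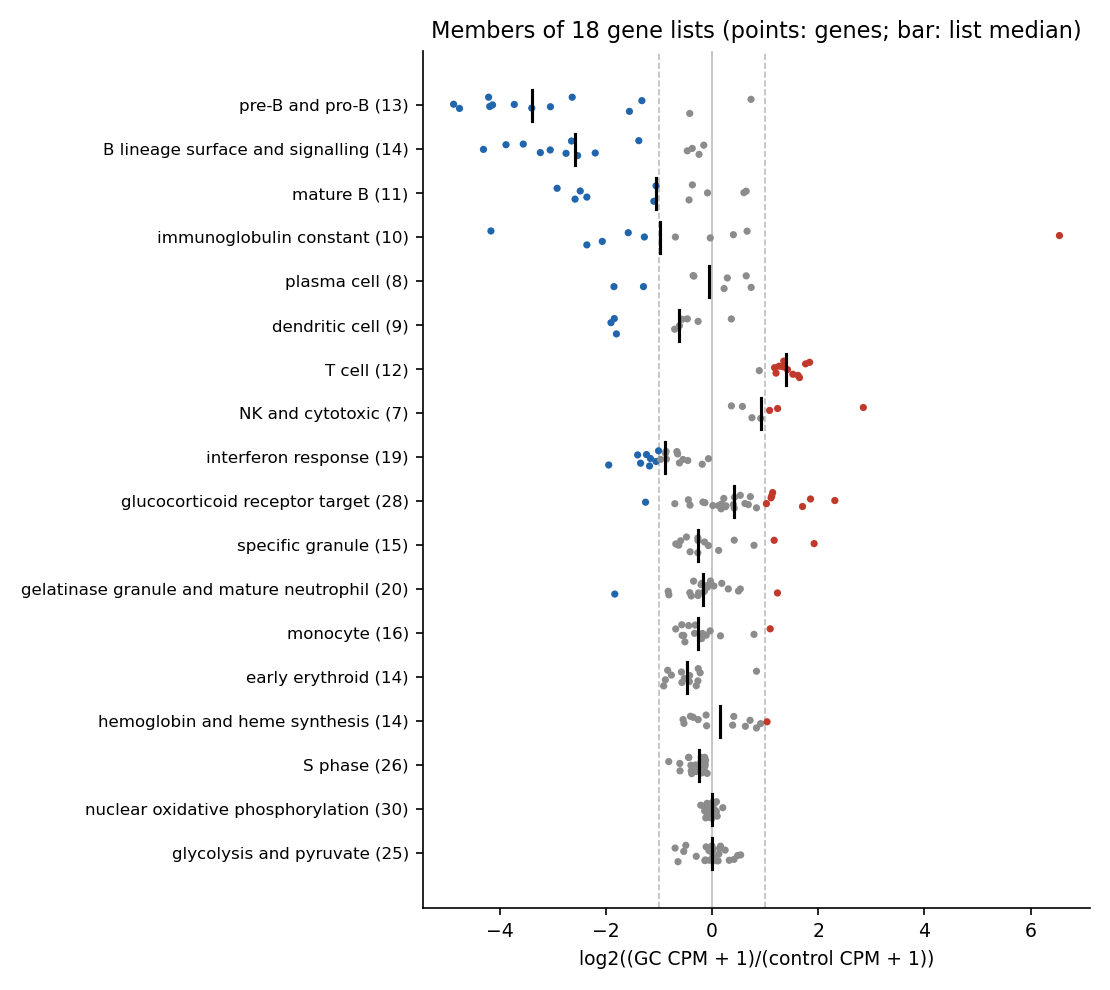
Log2((GC CPM + 1)/(control CPM + 1)) of each gene that entered (points, with vertical scatter for legibility) in 18 of the 52 lists, the number of genes in parentheses and the list median as a black bar; red and blue points are at least 2-fold higher and lower. The pre-B and pro-B, surface and signalling and mature B lists reach medians of -3.40, -2.59 and -1.06, the T-cell list 1.38, and the oxidative phosphorylation and glycolysis lists stay at -0.01 and 0.01.

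Interferon-stimulated genes were lower throughout. These genes encode antiviral effectors and sensors that type I interferon switches on through a factor complex that binds an interferon-stimulated response element. Of 19 that entered, of 24 matched, 8 fell and 0 rose, all 19 had a log2 ratio below 0, and the median was -0.88. The sum was 553.9 CPM in the control pool and 258.9 in the GC pool, 2.14-fold lower. Ifi27l2a fell most, from 181.2 CPM (176.8 to 185.6) to 46.2 (44.1 to 48.4), with UMIs in 1101 and 532 barcodes. The oligoadenylate synthetase family members Oasl2 (18.9 to 6.81 CPM), Oas3 (23.6 to 9.99) and Oas1a (5.69 to 1.84) and the chaperone Rtp4 (13.2 to 4.36) fell, and so did the DNA-sensor family members Ifi204 (19.8 to 8.17) and Ifi209 (17.4 to 7.87). Oas1a and Rtp4 entered through control alone, and the list median was -0.87 with no filter on genes.

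Isg15, a ubiquitin-like modifier, was at 26.2 and 13.9 CPM (log2 -0.87). The summed level was lower in GC in every size class of barcodes, by 2.13-fold to 2.62-fold. It was 428.0 CPM in control and 197.5 in GC among neutrophil-marked barcodes, and 737.8 and 335.9 among the others. The difference was thus of like size in both sets of barcodes. Without B-marked barcodes the sums were 558.7 and 258.9 CPM.

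The letters GAAANNGAAA, the core of such a response element, were searched on both strands in the 250 bases before each RefSeq gene start (GRCm38.p6). They occurred in 2.98% of all 32851 promoter windows and, as a gene can have several windows, in those of 3.46% of 27025 genes, against 11 of the 18 interferon-list genes that had a window. Among 5 genes that fell and had a window, Oas1a, Oas3 and Slfn5 held them. A match describes the letters only. The 3 windows are printed to show where the letters lie, in capitals, 120 bases each on the gene's own strand, Oas1a at chr5:120907526-120907645 (minus), Oas3 at chr5:120777670-120777789 (minus) and Slfn5 at chr11:82951892-82952011 (plus). In Oas1a 2 matches overlap, and the last ends 4 bases before the start, against 65 bases in Oas3 and 145 in Slfn5.
Oas1a: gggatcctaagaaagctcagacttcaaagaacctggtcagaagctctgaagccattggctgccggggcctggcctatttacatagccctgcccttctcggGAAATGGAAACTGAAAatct
Oas3: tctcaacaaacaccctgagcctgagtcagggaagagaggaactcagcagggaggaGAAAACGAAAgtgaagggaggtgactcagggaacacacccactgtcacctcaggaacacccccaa
Slfn5: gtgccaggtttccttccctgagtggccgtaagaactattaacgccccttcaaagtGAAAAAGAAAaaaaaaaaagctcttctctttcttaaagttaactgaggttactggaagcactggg

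Glucocorticoid receptor targets rose in part. Of 28 that entered, of 35 matched, 7 rose and 1 fell, with a median of 0.41 against -0.04 for all genes. Fkbp5, a co-chaperone that feeds back on the receptor, was at 16.0 CPM in the control library (14.7 to 17.4) and at 60.5 in the GC library (58.1 to 63.0). Zbtb16, a transcription factor gene, had 61 UMIs in control and 494 in GC, 7.28-fold higher as a ratio of CPM. Glul, the glutamine synthetase gene, was at 44.7 and 147.7 CPM.

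Klf9 (41.5 to 92.6 CPM), Tsc22d3, which encodes the mediator GILZ (75.9 to 166.7), the metallothionein Mt1 (116.6 to 252.9) and the triglyceride lipase Pnpla2 (33.0 to 68.1) completed those that rose. Tgm2, a transglutaminase, fell from 70.3 CPM to 28.9. Several textbook targets stayed within 2-fold: Per1 was at 86.0 and 97.3 CPM, Dusp1 at 334.2 and 398.4, Sgk1 at 57.1 and 68.7, and Ddit4 at 27.7 and 30.2. The receptor gene Nr3c1 was at 47.5 CPM in the control library (45.3 to 49.8) and at 48.3 in the GC library (46.1 to 50.5), and of the 14 receptor and chaperone genes that entered, Fkbp5 rose and 0 fell.

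The rise of these targets was larger in neutrophil-marked barcodes, 2697 in control and 3078 in GC, than in the rest for the 7 genes that rose, but not for the list as a whole. The list medians were 0.47 in neutrophil-marked barcodes, with 8 genes risen and 1 fallen, and 0.45 in the others, with 4 risen and 0 fallen, and the difference could not be tested. Lcn2 and Il1r2, the decoy receptor for interleukin-1, went the other way, with log2 ratios of 0.48 and 0.51 in neutrophil-marked barcodes and 1.45 and 1.67 in the others. Those others included 62 control and 227 GC barcodes just below the calprotectin limit of the mark. Lcn2 is itself a neutrophil granule gene. The part of neutrophils missed by the mark in these values, and in the list median of the others, was not tested. Glul was at 26.3 CPM in control and 176.5 in GC in neutrophil-marked barcodes, and its log2 ratio was 2.70 there and 0.63 in the others. Klf9 was at 18.7 and 80.5 CPM, with log2 ratios of 2.05 and 0.52. Fkbp5 was at 13.7 and 65.9 CPM, with 2.19 and 1.43. After thinning to 500 UMIs, Fkbp5 was detected in 0.905% of control barcodes (0.635% to 1.25%) and 3.86% of GC barcodes (3.34% to 4.45%), and without thinning in 11.4% and 34.7%. Its thinned share in neutrophil-marked barcodes was 0.667% and 3.93%, no set of barcodes that should lack the gene was available as background, and free RNA held 8.88 CPM of it in control and 35.5 in GC. The summed level of all listed targets was 1.16-fold to 1.75-fold higher in GC over the size classes of barcodes.

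The letters ACANNNTGT, the spaced core of the receptor's response element, were in 5.84% of all promoter windows and 6.76% of all genes, against 7 of 31 listed targets with a window. Of the 6 targets past 2-fold that had one, Glul and Mt1 held them, and their windows are shown for that reason, in capitals at the match, both on the plus strand, at chr1:153899809-153899928 and chr8:94178941-94179060. The match ends 16 bases before the start in Glul and 83 in Mt1. Response elements can also lie far from a start, outside these windows.
Glul: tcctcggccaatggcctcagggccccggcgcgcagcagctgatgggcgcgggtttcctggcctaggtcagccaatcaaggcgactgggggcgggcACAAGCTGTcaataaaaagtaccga
Mt1: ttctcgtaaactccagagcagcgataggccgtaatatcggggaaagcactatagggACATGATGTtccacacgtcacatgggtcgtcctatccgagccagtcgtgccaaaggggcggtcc

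The Ebf1 core TCCCNNGGGA was searched in the same way, as the pre-B genes moved together. It was in 0.779% of all windows and 0.914% of all genes, in 0 of 13 of the pre-B and pro-B genes and in 1 of 10 of the surface and signalling genes, Cd22. At so low a share of all genes, lists this short could hold few matches or none, so the counts do not tell whether Ebf1 sites are present. Only this exact core in these windows was searched.

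A further group of genes rose in neutrophil-marked barcodes without belonging to the target list. Prnp was at 10.6 CPM in control (9.51 to 11.7) and 94.5 in GC, 8.96-fold higher (8.06 to 9.99), with UMIs in 228 and 2037 barcodes. Within neutrophil-marked barcodes it was at 6.47 and 136.9 CPM. Ces2g, a carboxylesterase, was at 14.1 and 70.2 CPM overall and at 2.27 and 106.9 in neutrophil-marked barcodes, but its log2 ratio was -0.36 in the others. The rise of Ces2g was therefore held by the neutrophil-marked set.

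F13a1, the coagulation factor XIII chain and a monocyte marker, followed a like pattern. It was at 140.2 CPM in control and 300.3 in GC, and its UMIs were found in 423 and 2345 barcodes. In neutrophil-marked barcodes it was at 11.01 and 211.2 CPM (log2 4.14), while its log2 ratio in the other barcodes was 0.32. The other 15 monocyte genes that entered had log2 ratios from -0.69 to 0.79, and the list median was -0.26.

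Crispld2, a secreted protein gene that glucocorticoids are known to induce in other cells, was at 50.2 and 209.3 CPM. Sgms1, a sphingomyelin synthase, was at 40.9 and 118.6, Klhl6 at 27.7 and 71.2, Asprv1, a retroviral-like protease, at 174.4 and 461.0, Trp53inp1 at 37.4 and 85.6, Scrg1 at 39.1 and 98.7 and the adaptor Sla at 33.4 and 75.4. All 7 were also at least 2-fold higher within neutrophil-marked barcodes, with log2 ratios from 1.39 for Scrg1 to 2.25 for Klhl6.

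Neutrophil granule genes split by gene rather than by granule. Azurophil granules are filled first, at the promyelocyte stage, then specific granules, then gelatinase granules as the cell matures. Of 15 azurophil genes 0 rose and 0 fell, with a median of 0.11, and Elane and Mpo were at 1497.1 and 584.1 CPM under placebo and at 1779.1 and 621.6 in GC. Chil3, the chitinase-like protein Ym1 of specific granules, rose from 2065.5 CPM (2050.6 to 2080.5) to 7830.4, with UMIs in 2171 and 4386 barcodes. This was the largest rise in CPM outside hemoglobin. After thinning it was detected in 26.3% of control and 71.7% of GC barcodes, against 8.14% and 13.2% of B-marked barcodes, whose median depths were 4360 and 24820 UMIs, and without thinning in 54.6% and 91.6%. The acute-phase gene Orm1 rose from 48.6 CPM to 110.6.

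The other specific-granule genes were within 2-fold. Lactoferrin (Ltf) was at 2886.5 and 1796.0 CPM, cathelicidin (Camp) at 13628.0 and 9750.7, and Ngp at 16143.7 and 13426.3, whereas lipocalin-2 (Lcn2) was at 6362.8 and 8494.1 and haptoglobin (Hp) at 993.3 and 1717.1. The list median was -0.27, with 2 of 15 risen and 0 fallen. Among 20 gelatinase-granule and mature neutrophil genes the collagenase Mmp8 rose, from 934.2 CPM to 2194.7, and Ifitm1 fell. S100a9 (94013.0 and 73808.3 CPM) and S100a8 (91015.3 and 75747.1) had the largest losses in CPM, at log2 ratios of -0.35 and -0.26.

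Several genes that neutrophils carry fell. Ifitm1, an interferon-inducible membrane protein gene, was at 561.2 CPM in control and 156.7 in GC, and at 841.4 and 181.7 in neutrophil-marked barcodes. Acod1, which makes itaconate in activated myeloid cells, went from 392.8 CPM to 146.3 overall and from 625.1 to 217.1 in neutrophil-marked barcodes, while its log2 ratio was 0.10 in the others. Basp1 (96.0 to 26.9 CPM), Wfdc17 (513.4 to 234.6) and Vegfa, the angiogenic growth factor (75.7 to 30.9), fell as well. G0s2, a lipase inhibitor, was at 1317.4 and 742.0 CPM, within 2-fold, and Slc7a11, a cystine transporter subunit, at 215.1 and 121.9.

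Hes1, a Notch target, fell from 65.5 CPM to 15.1, and its log2 ratio was -0.31 once B-marked barcodes were left out. Neutrophil-marked barcodes made up 67.8% of control barcodes (66.3% to 69.3%) and 64.3% of GC barcodes (62.9% to 65.6%), with 62 control and 227 GC barcodes between 25 and 50 calprotectin UMIs per 1000 and 100 and 321 between 50 and 100, around the limit. Of the 95 genes that rose and the 114 that fell in the whole profile, 57 and 59 were also past 2-fold within neutrophil-marked barcodes. Those 2 counts did not require 5 CPM within the set. Of the 7121 genes that entered there, 99 rose and 66 fell. The 59 included B-lineage genes such as Ebf1 (log2 -3.93), Vpreb3 (-3.75) and Cd79a (-3.13). In this set 42 control and 3 GC barcodes also carried the B mark.

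Hemoglobin genes were higher in GC and most early erythroid genes were lower, nearly all within 2-fold. Hemoglobin is the last and most abundant product of a red cell precursor, and Klf1 and Gata1 are the factors that start the program. The summed hemoglobin and heme synthesis genes were at 40530.8 CPM in the control pool and 72727.6 in the GC pool, 1.79-fold higher. The globin genes carried this sum, and the median over the 14 genes was 0.14, which turned to -0.17 in barcodes of at least 500 genes and to -0.22 without hemoglobin-rich barcodes, those with at least 50% hemoglobin UMIs. Hba-a2 rose from 5175.7 CPM to 10605.9, alone among the 4 adult globin genes, and Hbb-bs, Hba-a1 and Hbb-bt had log2 ratios of 0.83, 0.91 and 0.63. Hba-a1 and Hba-a2 are near-identical copies, so the division of reads between them is uncertain. Bpgm, which makes 2,3-bisphosphoglycerate in red cells, rose from 103.0 CPM to 216.1, and Alas2, the first enzyme of erythroid heme synthesis, was at 120.6 and 198.6.

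The early erythroid genes had a median of -0.48, and 13 of 14 that entered were below 0, though 0 fell, and the member above 0 was Mt2, a metallothionein that is also a receptor target. Car1 was at 103.1 CPM in control and 54.3 in GC, Klf1 at 18.3 and 9.81, Gata1 at 9.31 and 5.95 and Hemgn at 52.9 and 28.3. Hemoglobin-rich barcodes numbered 195 in control, 4.90%, and 475 in GC, 9.92%. Without them the hemoglobin and heme genes summed to 11245.9 CPM in control and 11085.4 in GC, and 0 of them were past 2-fold.

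The size classes did not share 1 direction, with folds of 1.70, 0.816, 1.601, 2.34 and 0.821 from the smallest to the largest barcodes. The rule's minimum of 200 genes had also removed 202 control and 721 GC barcodes, whose median hemoglobin share was 91.8% and 93.2%. Hbb-bs, moreover, had a UMI in 40.4% of the thinned neutrophil-marked barcodes of each library, and free RNA held 168463 and 110550 CPM of the hemoglobin and heme genes.

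**Figure D4:**
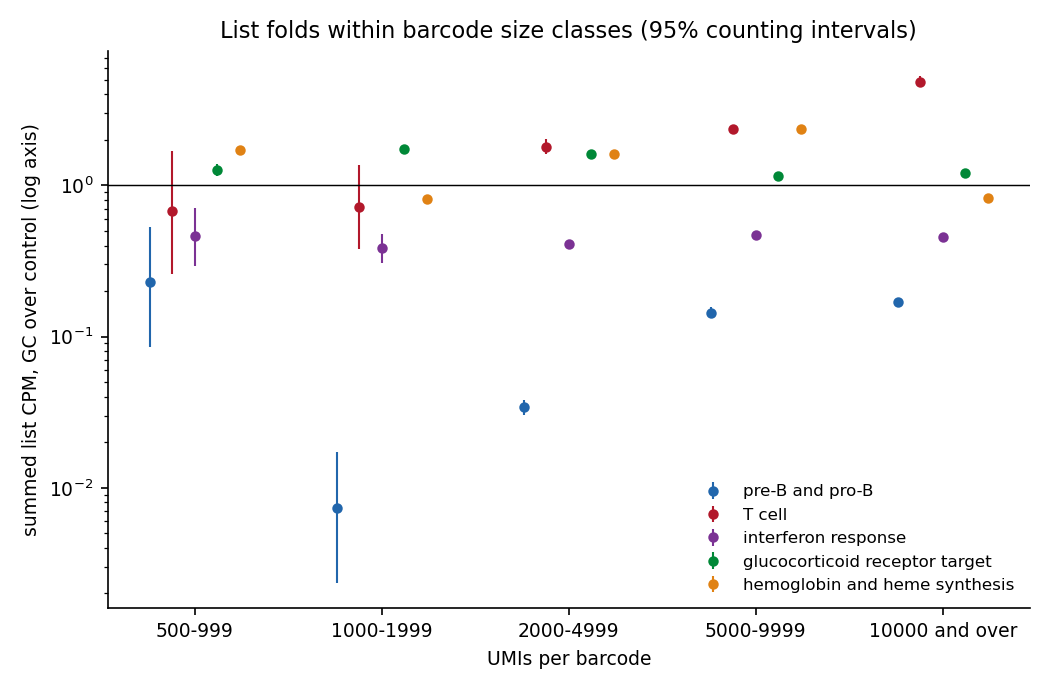
Summed CPM of 5 gene lists in GC divided by that in control (y, log axis) within 5 classes of UMIs per barcode (x), with 95% counting intervals as bars. The pre-B and pro-B fold is below 1 in every class, from 0.00731 to 0.231, the interferon fold lies between 0.382 and 0.470, and the T-cell and hemoglobin folds lie on both sides of 1.

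Inflammatory genes did not fall as a group. Of 17 inflammatory cytokine and signal genes that entered, 2 rose and 1 fell, with a median of 0.34. Icam1, an adhesion molecule for leukocytes, was at 11.8 CPM in control and 36.7 in GC, and Cxcl1, a neutrophil-attracting chemokine, had 51 UMIs in control and 539 in GC. Cxcl1 was at 1.43 CPM in control and entered through GC alone, and at least 50% of its UMIs lay in 2 control and 18 GC barcodes. Il12a fell from 13.4 CPM to 5.73. Tnf was at 28.1 and 50.3 CPM, Il1b at 775.4 and 678.4, Cxcl2 at 1569 and 1964.0, and Nfkbia, the inhibitor of NF-kB and itself a receptor target, at 621.5 and 954.6. Within 16 chemokine-system genes that entered, Ccl5 and Cxcl1 rose and Ccr9 fell, and the retention receptor Cxcr4 and the release receptor Cxcr2 of marrow neutrophils were at 271.5 and 125.7 CPM under placebo and at 206.7 and 177.7 in GC.

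Bone-forming genes rested on a handful of barcodes. Col1a1 and Col1a2, the chains of type I collagen, were at 23.3 and 24.1 CPM under placebo and at 107.0 and 58.1 in GC. At least 50% of the UMIs of each lay in 3 control barcodes and 1 GC barcode, and with a limit of 5% mitochondrial UMIs per barcode the log2 ratios turned from 2.15 and 1.23 to -1.42 and -1.75. Ibsp, bone sialoprotein, was at 0.365 and 6.99 CPM in 2 and 4 barcodes. Bglap, osteocalcin, was at 8.47 and 0.429 CPM in 13 and 7 barcodes. Of 10 osteoblast and matrix genes that entered, 3 rose and 2 fell. Pf4, a platelet chemokine, likewise went from 48.5 CPM to 9.71 with at least 50% of its control UMIs in 1 barcode.

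Housekeeping and metabolic groups stayed near 0. Median log2 ratios were 0.01 for 25 glycolysis genes, -0.01 for 30 nuclear oxidative phosphorylation genes, 0.02 for 19 fatty acid oxidation genes and 0.11 for 44 ribosomal protein genes, with 0 genes past 2-fold in each. Fatty acid uptake and storage genes had a median of 0.10, and Pnpla2 and Fabp4 (3.67 to 11.1 CPM) rose. Cholesterol and fatty acid synthesis genes had a median of -0.37, and of 23 that entered Scd1 fell, from 9.03 CPM to 1.59. The log2 ratio of Scd1 was -1.95 over all barcodes and -0.53 without B-marked barcodes. Proliferation genes were slightly lower, with all 26 S-phase and all 30 G2 and M-phase genes below 0, medians of -0.25 and -0.26 and 0 genes past 2-fold. Without B-marked barcodes Dut, Rpa2, Chaf1b and Ube2c had log2 ratios from 0.01 to 0.07, and the rest of both lists stayed below 0. Within neutrophil-marked barcodes Mcm2, Mcm4, Rrm2, Chaf1b, Pold3 and Hmgb2 were above 0, by at most 0.15. Hematopoietic progenitor genes had a median of 0.22, with 0 of 9 past 2-fold.

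Set beside the callus libraries, the trabecular differences were largely not shared in size. In callus, 72 of 9884 genes rose, or 0.728%, and 88 fell, or 0.89%, in 7133 control and 7318 GC barcodes. Of the 95 genes that rose in trabecular bone, 65 entered in callus, where 2 were past 2-fold in the same direction, 2 in the other, and the median log2 ratio was 0.36. Of the 114 that fell, 70 entered in callus, with 4 past 2-fold the same way, 5 the other way and a median of -0.17. Chil3 was at 24.8 CPM in control callus and 79.3 in GC callus, and Fabp4 at 19.7 and 52.3. Cd79b (14.3 and 5.54 CPM), Ly6d (20.8 and 9.13), Iglc2 and Iglc3 fell in both tissues. Ebf1 had a log2 ratio of 0.19 in callus, at 104.9 CPM in control callus, against -4.76 in trabecular bone. Other B-lineage genes were mixed in callus, with log2 ratios of -0.67 for Cd79a, -0.28 for Sox4, 0.07 for Blnk and 0.01 for Akap12. Vpreb1, Vpreb3 and Igll1 were at -1.29, -1.26 and -1.25 there, at levels below 5 CPM. The interferon list had a median of 0.27 in callus against -0.88 in trabecular bone. No test of the difference between tissues was possible, as each had 1 library a side.

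**Figure D5:**
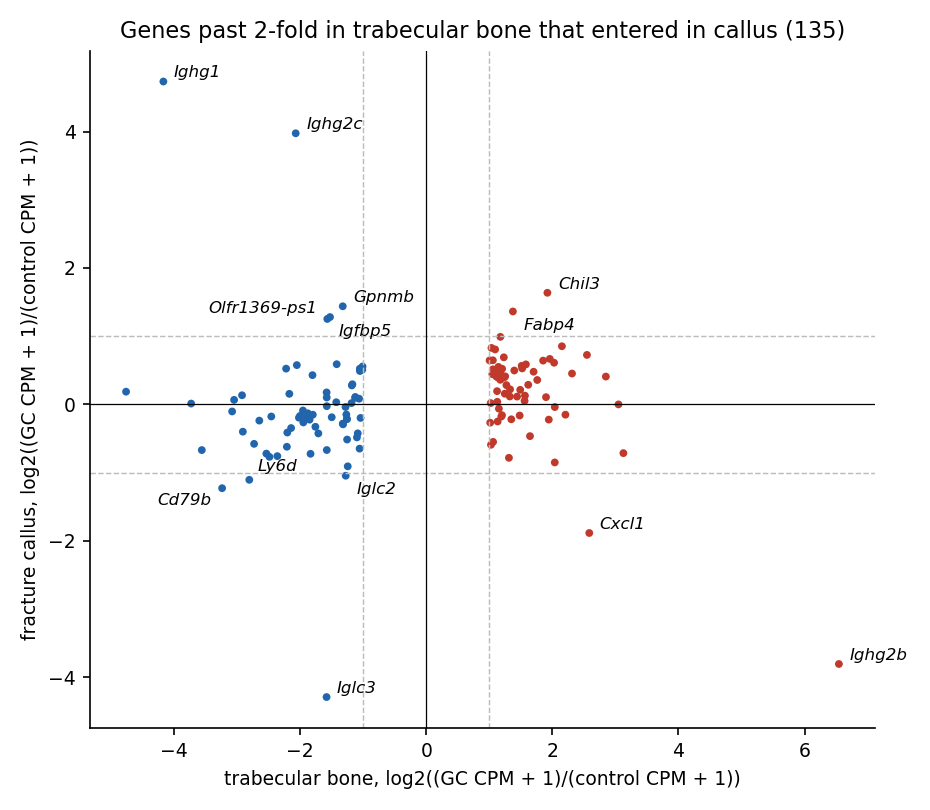
Log2((GC CPM + 1)/(control CPM + 1)) in trabecular bone (x) and in fracture callus (y) for the 135 genes past 2-fold in trabecular bone that entered in callus; dashed lines mark 2-fold. Most points lie between the dashed horizontal lines, Chil3 and Fabp4 are past 2-fold upward in both tissues, and the immunoglobulin genes Ighg2b, Ighg1 and Ighg2c lie in opposite corners.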

How the data were processed

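Per the labels, the authors made the libraries with a 10x Genomics kit and processed them with Cell Ranger 5.0.1 and Seurat 3.2.0 on mm10, whereas the matrix headers name Cell Ranger 4. The deposited values are unnormalized UMI counts for 32285 genes, and both trabecular matrices list all 6794880 possible barcodes. Filters, pooling and CPM were applied here as stated above, with Python 3.11.15, numpy 2.4.6, scipy 1.17.1, pandas 2.3.3 and matplotlib 3.10.9. Doublets and free RNA were not removed. Intervals are exact (Poisson for levels, conditional for ratios, Clopper-Pearson for shares). The pooling and ratio steps were tested on simulated data. The 52 gene lists (888 of 890 symbols matched; Ahsp and Mx1 did not) and the members were chosen with earlier results of these data known. Named were list genes, the 25 highest and 25 lowest log2 ratios at 50 CPM or more without antigen receptor segments or numbered gene models, and the 10 largest CPM gains and losses. With 1 library a side no test, replicate or batch comparison could be made. Promoter windows are from RefSeq on GRCm38.p6.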

Additional observations from a re-analysis of the deposited data

Results flagged for a closer look

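The following 7 genes were at least 2-fold apart between GC and control in opposite directions in trabecular bone and in callus, with 1 library behind each group, and the difference between the tissues was not tested. They included 3 immunoglobulin heavy-chain genes. Ighg2b had a log2 ratio of 6.54 in trabecular bone and -3.81 in callus. Ighg2c was at -2.07 and 3.98, and Ighg1 at -4.17 and 4.73. In trabecular bone 1 barcode held at least 50% of the UMIs of each in the library where it was higher. Cxcl1, the neutrophil-attracting chemokine, was at 2.59 in trabecular bone (1.43 to 13.6 CPM) and -1.89 in callus (95.1 to 24.98 CPM). In trabecular bone at least 50% of the Cxcl1 UMIs lay in 2 control and 18 GC barcodes. Igfbp5, a growth factor binding protein, was at -1.52 and 1.28, Gpnmb, a lysosomal glycoprotein of macrophages and osteoclasts, at -1.32 and 1.44, and the pseudogene Olfr1369-ps1 at -1.57 and 1.25.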

How the results depend on the processing

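The counts of 95 genes that rose and 114 that fell depended on the gene filter and the pseudocount. They were 55 and 71 with a pseudocount of 5 CPM, 162 and 178 with at least 50 UMIs over both libraries, 29 and 16 at 50 CPM or more, 166 and 185 with no filter, and 174 and 267 as a mean of each barcode's CPM, where 9 in place of 4 lists had a median past 2-fold. Without B-marked barcodes 35 genes fell, 75.2% of the genes past 2-fold were higher in place of 45.5%, and 1 list median was past 2-fold; at 50 CPM or more the share higher was 64.4%. Chosen after seeing the data, neutrophil-marked barcodes alone gave 66 that fell, and leaving them out gave 154 that rose and 218 that fell. The other planned settings stayed within 1.5 times, and the median of all genes lay between -0.07 and 0.04 over the 18 planned settings. Directions turned for the mature B median, to 0.60 (50 CPM or more), 0.32 (without B-marked barcodes) and 0.36 (neutrophil-marked barcodes), for the hemoglobin and heme median, from 0.14 to -0.17 (at least 500 genes) and -0.22 (without hemoglobin-rich barcodes), for Col1a1 and Col1a2, to -1.42 and -1.75 (at most 5% mitochondrial UMIs), for Prg2, to -1.50 (barcode mean) and -0.91 (neutrophil-marked barcodes), for Iglc2 and Col1a2, to 0.10 and -0.053 (without B-marked barcodes), and for Acod1 and Ces2g, to 0.10 and -0.36 (without neutrophil-marked barcodes). The cause was not tested. No replicate could be left out, as each group has 1 library. No paired analysis was possible because each group has 1 library and the results come from no test.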

Other observations

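Basophil and mast-cell genes had a median log2 ratio of 0.36, with 0 of 11 that entered past 2-fold in the whole profile. Within neutrophil-marked barcodes their levels were further apart. Prss34, a basophil protease, was at 4.82 CPM in control and 53.8 in GC, and Mcpt8 at 2.08 and 14.3. Over all barcodes at least 50% of the UMIs of either gene lay in 7 control and 8 GC barcodes. The eosinophil granule gene Prg2 was at 40.2 CPM in control and 85.8 in GC, with at least 50% of its UMIs in 1 barcode of each library. Among genes that answer to stress, Hmox1 was at 18.4 and 34.7 CPM, Hspa1a fell from 8.58 CPM to 3.66, and the median over 16 heat shock genes was 0.03. The ER folding genes had a median of 0.21, with 0 of 23 past 2-fold.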
